A study of Rattus norvegicus with 6 samples.

Results

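The 10 genes described here carry fatty acids into the cell and into mitochondria, break them down there, or set how far pyruvate competes with them as fuel. They were taken by symbol from a gene expression table of rat Achilles tendon, where 10 of 37991 gene records carried these names: Cd36, Cpt1a, Cpt1b, Cpt2, Acadvl, Acadl, Acadm, Hadha, Hadhb and Pdk4. The list of names was drawn up with earlier results of these data known. RNA was taken from male Sprague-Dawley rats, an outbred strain, whose Achilles tendon had been cut surgically (tenotomy) at 8 weeks of age. Rats of the PM group (3 libraries) breathed fine particulate matter over 6 weeks, with 3 exposures per week, whereas those of the non-PM group (3 libraries) had the same tenotomy without exposure. The tendon was removed as a block, so each library holds RNA of a whole tissue piece, and fewer cells of a type cannot be told apart from less RNA per cell. The labels do not say that libraries came from separate animals, so p-values measure only the spread between these libraries.

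Long-chain fatty acids enter cells with the help of the membrane protein CD36 and are activated to acyl-CoA. Carnitine palmitoyltransferase 1 on the outer mitochondrial membrane, the step that malonyl-CoA inhibits, joins the acyl group to carnitine, and carnitine palmitoyltransferase 2 on the inner membrane returns it to CoA. Acyl-CoA dehydrogenases and the mitochondrial trifunctional protein then shorten the chain in cycles that release acetyl-CoA. Skeletal and heart muscle rely on this route and use the CPT1B form of the first enzyme, while most other tissues, fibroblasts among them, use CPT1A. Tendon itself is poor in cells and rich in matrix.

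The libraries held between 46357986 and 62298837 counts, and 18134 genes were tested. No gene passed an adjusted p of 0.05 in edgeR's quasi-likelihood test (0% of genes), against 13 genes in DESeq2 and 0 in limma, and 537 genes had an unadjusted p under 0.05 in edgeR. By a relaxed criterion (unadjusted p under 0.05 and a fold change of at least 1.2) 1.47% of the tested genes were higher in PM and 1.49% were lower. The tissue pieces differed in makeup. A list of 30 skeletal muscle markers took 3.60, 9.37 and 5.42% of counts in PM replicates 1 to 3, against 5.39, 2.60 and 12.4% in non-PM replicates 1 to 3. The 10 tendon markers took between 3.73 and 7.65% in PM libraries, against 6.68, 5.20 and 0.548% in non-PM libraries. The tendon genes Scx and Tnmd were detected in every library. The 95% Wilson intervals of these shares were at most 0.0171 percentage points wide and cover counting error only. Non-PM replicate 3, richest in muscle RNA and poorest in tendon RNA, stood apart, so the main results are given with and without it. Leaving it out does not balance muscle RNA between the groups. Muscle shares of 5.39 and 2.60% in non-PM then stand against 3.60, 9.37 and 5.42% in PM. Markers of keratinocytes stood at 0.0870% in non-PM replicate 2, while no other library exceeded 0.0012%.

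Of the 10 genes, 7 (Cpt1b, Cpt2, Acadvl, Acadl, Acadm, Hadha and Hadhb) varied together from library to library and not by group, while Cd36, Pdk4 and above all Cpt1a followed other courses. The log2 fold changes of PM over non-PM ran between -0.72 and 0.30, with 3 of 10 above 0 and a median of -0.44, beside -0.0040 over all genes tested. None of the 10 genes passed either criterion, and none had an unadjusted p under 0.05 in edgeR, DESeq2 or limma. Their unadjusted p in edgeR lay between 0.320 (Cpt2) and 0.670 (Cd36). Groups overlapped for all 10 genes, as they did for most tested genes. Every PM library was above every non-PM library for 4.77% of the tested genes and below for 4.91%. Levels below are fragments per unit of gene length and depth (FPKM), or counts scaled to library size (CPM) with edgeR's trimmed mean of M values. FPKM allow for gene length and serve to compare genes, and CPM serve to compare libraries.

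**Figure D1:**
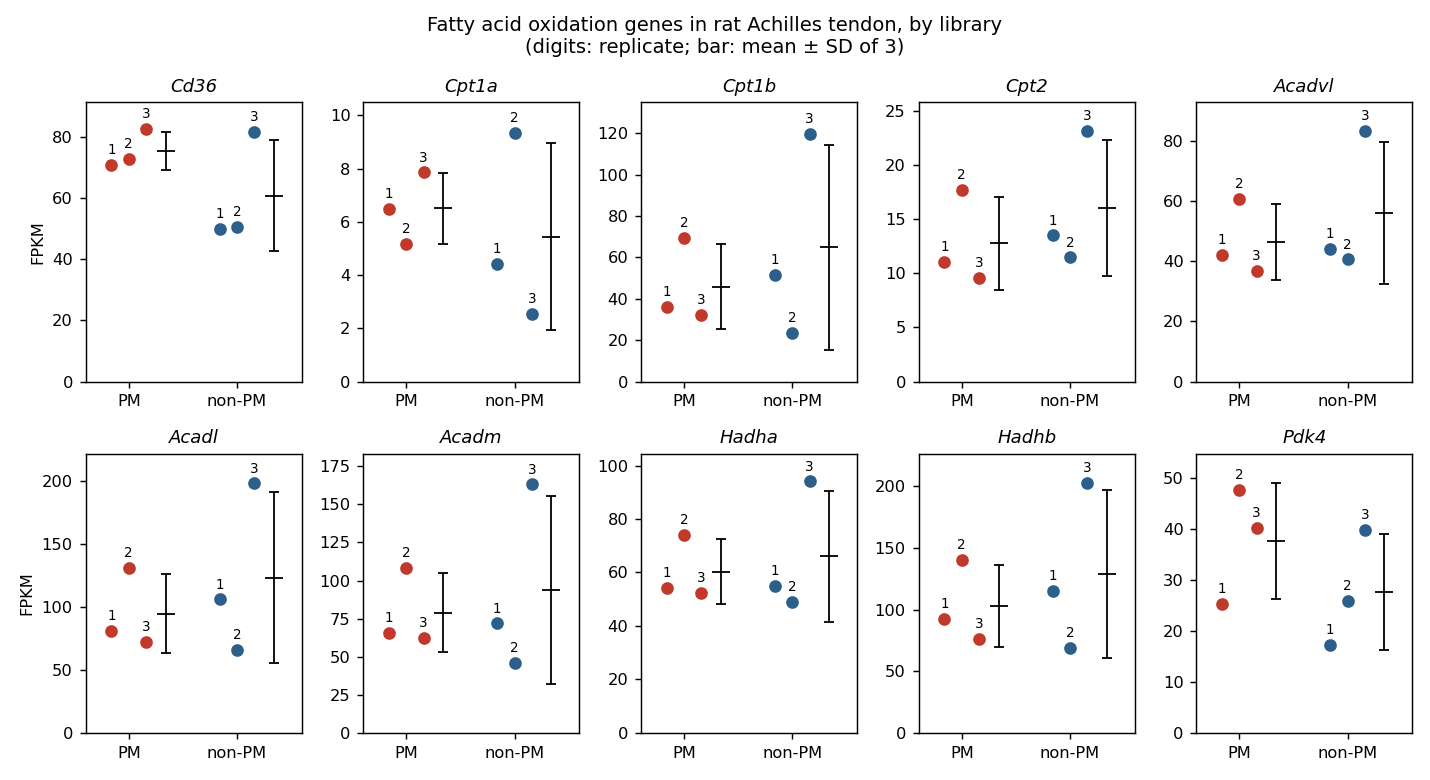
FPKM of each of the 10 genes by library, PM (red) left of non-PM (blue), with the replicate number beside each point and the mean ± SD of 3 libraries beside each group. Non-PM replicate 3 was the highest library for 7 of the 10 genes in FPKM, and groups overlapped for all 10.

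Cd36 (gene 29184), the fatty acid translocase of muscle fibres, fat cells, capillary endothelium and macrophages, had 70.6, 72.8 and 82.4 FPKM in PM replicates 1 to 3, against 49.8, 50.6 and 81.5 FPKM in non-PM replicates 1 to 3. The 3 PM libraries lay close together and above non-PM replicates 1 and 2. Non-PM replicate 3 reached the PM level. In CPM, Cd36 stood at 188.8, 213.5 and 225.1 in PM and at 142.4, 127.8 and 292.6 in non-PM libraries. The log2 fold change was 0.16 ± 0.35 (SE, 3 libraries per group, edgeR adjusted p = 0.951). Without non-PM replicate 3 Cd36 passed the relaxed criterion at 0.62 ± 0.18 (edgeR adjusted p = 0.960), as did 277 genes in the higher direction over all tested. Markers of the other cell types that carry CD36 moved as follows. The 12 adipocyte markers took 0.0560, 0.0987 and 0.167% of counts in PM and 0.0476, 0.0779 and 0.0453% in non-PM libraries, and none of the 12 had a log2 fold change below 0. The 13 endothelial markers took between 0.121 and 0.199% in PM and between 0.0956 and 0.133% in non-PM libraries, and 11 of 13 had a log2 fold change above 0. The macrophage markers took between 0.0655 and 0.112% in PM and between 0.0296 and 0.135% in non-PM libraries. Exact permutation tests of the marker shares gave adjusted p-values of 0.9 or more, in a design where no unadjusted p can be below 0.1, and their part in the level of Cd36 was not tested.

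Adipoq, the fat cell hormone adiponectin, had 68.6, 105.6 and 258.5 CPM in PM, against 45.97, 87.1 and 27.3 CPM in non-PM libraries. Its level was highest in PM replicate 3, the library with the highest Cd36 of the PM group. Over the 6 libraries the 2 genes did not run together. Non-PM replicate 3 had the highest Cd36 in CPM (292.6) and the lowest Adipoq. Ucp1, the defining gene of brown fat, had no count in any library.

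Cpt1a (gene 25757), the carnitine palmitoyltransferase of liver and most non-muscle cells, was the least abundant of the 10 genes. It had 6.49, 5.17 and 7.85 FPKM in PM replicates 1 to 3, against 4.41, 9.34 and 2.55 FPKM in non-PM replicates 1 to 3. Its highest and its lowest library were both in the non-PM group, with the lowest in the library richest in muscle RNA and the highest in the one poorest in it. PM over non-PM, this gave a log2 fold change of 0.24 ± 0.36 (SE, 3 libraries per group, edgeR adjusted p = 0.942). With non-PM replicate 2 left out it was 0.73 ± 0.24, past the relaxed criterion (edgeR adjusted p = 0.614), as were 582 genes in this direction over all tested. Without non-PM replicate 3 it was -0.042.

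Cpt1b (gene 25756), the muscle form, ran the other way. It had 36.0, 69.4 and 31.99 FPKM in PM, against 51.6, 23.3 and 119.7 FPKM in non-PM libraries. The highest CPM was 7.26 times the lowest, the widest spread among the 10 genes, and both extremes lay in the non-PM group. Its log2 fold change was -0.72 ± 0.73 (SE, 3 libraries per group, edgeR adjusted p = 0.942), and without non-PM replicate 3 it was 0.31. Chkb is a choline kinase gene next to Cpt1b, and its reads could be mixed with those of Cpt1b. Chkb had between 32.3 and 39.0 CPM in PM and between 33.7 and 47.0 CPM in non-PM libraries. This range was much narrower than that of Cpt1b.

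The ratio of Cpt1b to Cpt1a in FPKM put the muscle form above the other form in every library. It was 5.54, 13.4 and 4.07 in PM, against 11.7, 2.50 and 46.9 in non-PM libraries. The groups overlapped, and the log2 ratio differed by -0.72 (exact two-sided permutation p = 0.7, adjusted p = 0.8 over 5 ratios and sums, where 0.1 is the smallest p that 3 against 3 libraries allow). Without non-PM replicate 3 the difference was 0.31.

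Cpt2 (gene 25413), the inner membrane partner, had 11.1, 17.7 and 9.58 FPKM in PM, against 13.5, 11.46 and 23.2 FPKM in non-PM libraries. It followed Cpt1b from library to library at a lower level and with a smaller spread, and it lay above Cpt1a in all 6 libraries. Between the groups the log2 fold change was -0.49 ± 0.45 (SE, 3 libraries per group, edgeR adjusted p = 0.942).

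The 3 acyl-CoA dehydrogenases of the list act on chains of decreasing length: Acadvl (gene 25363) on very long chains, Acadl (gene 25287) on long chains and Acadm (gene 24158) on medium chains. Acadvl had 42.0, 60.7 and 36.8 FPKM in PM, against 44.1, 40.6 and 83.5 FPKM in non-PM libraries. Acadl had 81.0, 130.6 and 72.0 FPKM in PM, against 105.8, 65.8 and 197.9 FPKM in non-PM libraries. Acadm had 65.8, 108.6 and 62.3 FPKM in PM, against 71.9, 45.7 and 163.1 FPKM in non-PM libraries. All 3 were highest in non-PM replicate 3 and next highest in PM replicate 2. Their log2 fold changes were -0.44 ± 0.46 for Acadvl, -0.57 ± 0.56 for Acadl and -0.45 ± 0.61 for Acadm (SE, 3 libraries per group, edgeR adjusted p = 0.942 each). Acadl was above Acadm in all 6 libraries.

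Hadha (gene 170670) and Hadhb (gene 171155) encode the alpha and beta subunits of the trifunctional protein, which carries out the last 3 steps of each cycle on long chains. Hadha had 54.3, 74.2 and 52.3 FPKM in PM, against 54.8, 49.1 and 94.1 FPKM in non-PM libraries. Hadhb had 92.4, 140.1 and 76.2 FPKM in PM, against 115.3, 69.0 and 202.7 FPKM in non-PM libraries. Both had the same order of libraries in CPM. The FPKM ratio of Hadha to Hadhb was 0.587, 0.529 and 0.687 in PM and 0.475, 0.712 and 0.464 in non-PM libraries, so the subunit genes did not keep a fixed ratio. The log2 fold change was -0.29 ± 0.42 for Hadha and -0.52 ± 0.56 for Hadhb (SE, 3 libraries per group, edgeR adjusted p = 0.942 each).

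Pdk4 (gene 89813), a kinase that switches off pyruvate dehydrogenase and so spares glucose when fatty acids are burned, had 25.3, 47.7 and 40.2 FPKM in PM, against 17.2, 25.9 and 39.9 FPKM in non-PM libraries. PM replicates 2 and 3 and non-PM replicate 3 were the high libraries, and the groups overlapped. For Pdk4 the log2 fold change was 0.30 ± 0.45 (SE, 3 libraries per group, edgeR adjusted p = 0.942). With non-PM replicate 3 left out it was 0.87 ± 0.34 (edgeR adjusted p = 0.960), past the relaxed criterion, as were 277 genes in this direction over all tested. With non-PM replicate 1 left out it was 0.0087, and with a score of skeletal muscle markers as covariate, described below, -0.011. In CPM, Pdk4 stood at 37.7, 78.1 and 61.4 in PM and at 27.6 and 36.6 in non-PM replicates 1 and 2. Pdk2, a kinase of the same family, gave a Pdk4 to Pdk2 FPKM ratio of 0.723, 0.767 and 1.17 in PM, against 0.453, 0.863 and 0.455 in non-PM libraries. The log2 ratio differed by 0.62, PM over non-PM, and the difference did not pass (exact permutation p = 0.3, adjusted p = 0.75).

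Ranked by mean FPKM over the 6 libraries, the genes stood in the order Hadhb (116.0), Acadl (108.9), Acadm (86.2), Cd36 (67.9), Hadha (63.1), Cpt1b (55.3), Acadvl (51.3), Pdk4 (32.7), Cpt2 (14.4) and Cpt1a (5.97). Hadhb was above Acadl, Acadl above Acadm, Pdk4 above Cpt2 and Cpt2 above Cpt1a in 6 of 6 libraries. Acadm and Cd36, Cd36 and Hadha, and Cpt1b and Acadvl each changed places in 3 of 6 libraries, so these neighbours did not differ beyond their spread. Hadha was above Cpt1b, and Acadvl above Pdk4, in 5 of 6 libraries.

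**Figure D2:**
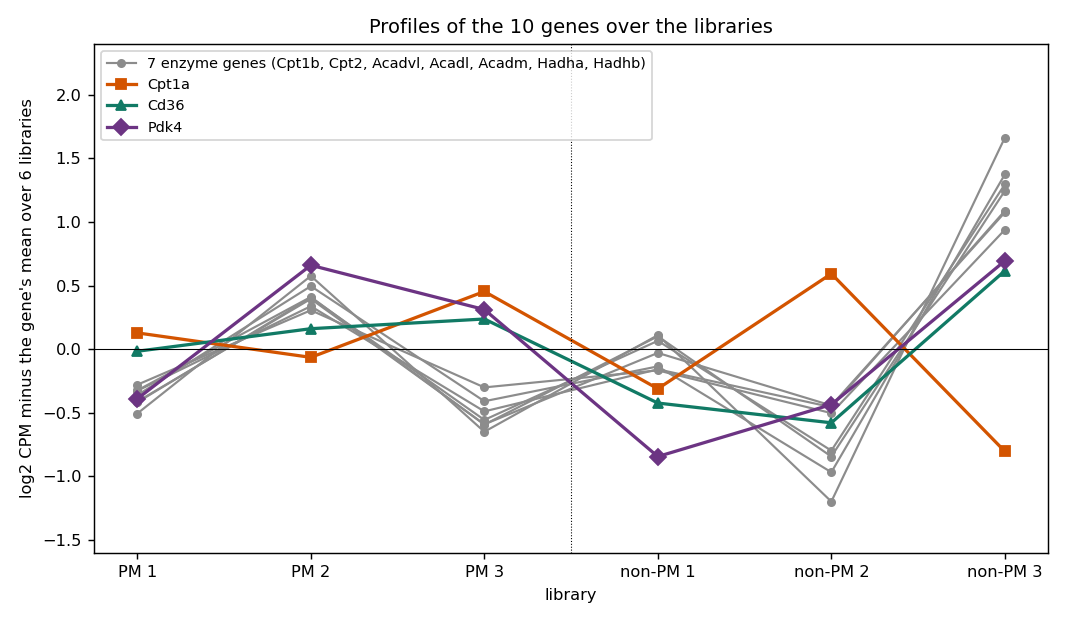
Log2 CPM of each of the 10 genes by library (x axis, PM libraries left of non-PM), minus the gene's own mean over 6 libraries, with the 7 enzyme genes in grey. The grey lines peak in non-PM replicate 3 and in PM replicate 2, and Cpt1a runs against them in non-PM replicates 2 and 3.

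Cpt1b, Acadl, Acadm, Hadha and Hadhb ranked the 6 libraries in 1 order, from non-PM replicate 3 through PM replicate 2, non-PM replicate 1, PM replicate 1 and PM replicate 3 to non-PM replicate 2. Cpt2 and Acadvl differed from this order only in the places of the last libraries. The root mean square difference between centred log2 CPM profiles was between 0.052 and 0.47 over the 21 pairs of these 7 genes, with Acadl and Hadhb the closest pair. Against the same 7 genes it was between 0.92 and 1.38 for Cpt1a, between 0.42 and 0.75 for Pdk4 and between 0.30 and 0.70 for Cd36. These distances describe 6 libraries that share tissue makeup and depth, and they carry no test. The 5 genes outside the lists whose profile lay nearest to the mean of the 10, among 11514 candidates, were Uaca (0.040), Ube3b (0.047), Opa3 (0.050), Pdha1l1 (0.056) and Nudt3 (0.059). Opa3 codes for a mitochondrial protein and Ube3b for a ubiquitin ligase. Pdha1l1 is named as a copy of a pyruvate dehydrogenase subunit gene, so its reads may be shared with that gene.

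Summed over the 10 genes, CPM came to 1090, 1759 and 1082 in PM, against 1257, 832.6 and 2991 in non-PM libraries. In both groups the library with the largest muscle share had the largest sum. The sums differed by -383.3 CPM between the group means (exact permutation p = 0.8), and by 265.6 CPM without non-PM replicate 3. Per unit of skeletal muscle marker CPM the sum was 0.0321, 0.0181 and 0.0210 in PM, against 0.0236, 0.0366 and 0.0190 in non-PM libraries, with overlapping groups (exact permutation p = 0.6).

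**Figure D3:**
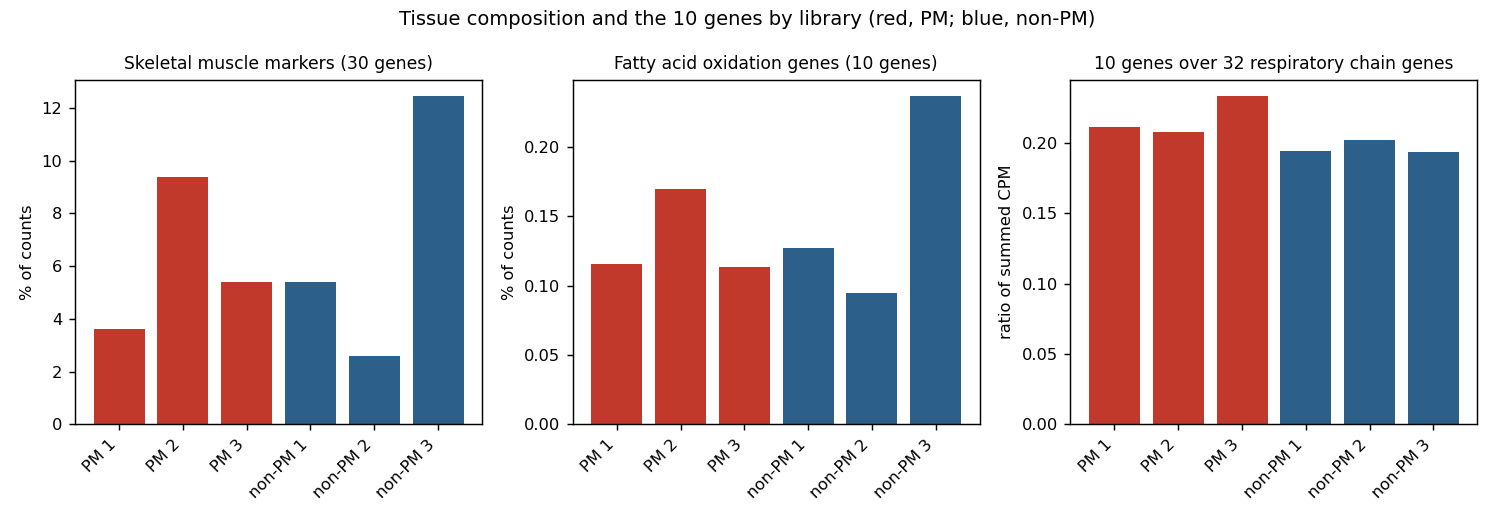
Skeletal muscle marker share of counts (left), share of the 10 genes (middle) and summed CPM of the 10 genes over that of 32 nuclear respiratory chain genes (right), one bar per library, PM (red) left of non-PM (blue). Muscle and fatty acid oxidation shares are largest in non-PM replicate 3 and, within PM, in replicate 2.

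Fibre type within the muscle RNA also differed between libraries. Myh7, the myosin of slow fibres, which are rich in mitochondria, had 6741, 9996 and 5371 CPM in PM, against 10431, 5039 and 30307 CPM in non-PM libraries. Myh4, the myosin of the fastest fibres, had 26.9, 6343 and 6016 CPM in PM, against 26.3, 14.6 and 64.1 CPM in non-PM libraries. The 10 fast fibre markers took 0.300, 2.43 and 1.73% of counts in PM and 0.262, 0.190 and 0.636% in non-PM libraries. The 7 slow fibre markers took 1.34, 1.78 and 0.959% in PM and 2.11, 0.991 and 4.45% in non-PM libraries. Of the 2 libraries with high Myh4, PM replicate 2 was high in the 7 enzyme genes and PM replicate 3 was low in them. Over the 6 libraries Myh7 ranked as Acadl and Hadhb did, except that non-PM replicate 1 stood above PM replicate 2. Of the fast fibre markers 10 of 10 had a log2 fold change above 0 (median 1.79, 4 higher by the relaxed criterion), and of the slow fibre markers 0 of 7 (median -1.17, 0 passing). The exact permutation p of the shares was 0.2 for fast and 0.4 for slow fibre markers, where 0.1 is the smallest possible. Their part in the levels of the 10 genes was not tested.

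A score of the skeletal muscle markers averaged their log2 CPM, each minus its mean over the 6 libraries. It was -0.89, 1.47 and 0.53 in PM, against -0.51, -1.56 and 0.95 in non-PM libraries. PM replicate 2 stood above non-PM replicate 3 in this score but below it in the share of counts, so the score does not equal muscle share. PM replicate 3 and non-PM replicate 1 had close shares (5.42 and 5.39%) but scores of 0.53 and -0.51. The score weighs each marker alike and includes all 10 fast fibre markers, but not the slow fibre genes Myl2, Myl3 and Myoz2. A fit with this score is thus not a comparison at equal muscle share. With the score as a covariate in edgeR, the log2 fold changes of the 10 genes had a median of -0.64. Cpt2 (-0.72 ± 0.26) and Acadl (-0.78 ± 0.32) then passed the relaxed criterion, beside 945 genes lower and 1226 higher over all tested, and neither passed adjustment (edgeR adjusted p = 0.406 each). Without non-PM replicate 3 the median was 0.22, 9 of 10 log2 fold changes were above 0, and those of the 7 enzyme genes lay between 0.075 and 0.46. The direction of these 7 genes turned with 1 library. In the refit without non-PM replicate 3 the skeletal muscle markers had a median log2 fold change of 1.07, against 0.057 over 6 libraries. That of the fast fibre markers was 2.90 and that of the slow fibre markers -0.25. The refit is therefore less balanced in muscle RNA than the fit over 6 libraries. With a score of adipocyte markers as covariate, 4 of the 7 enzyme genes were above 0 and the median of the 10 genes was 0.045.

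**Figure D4:**
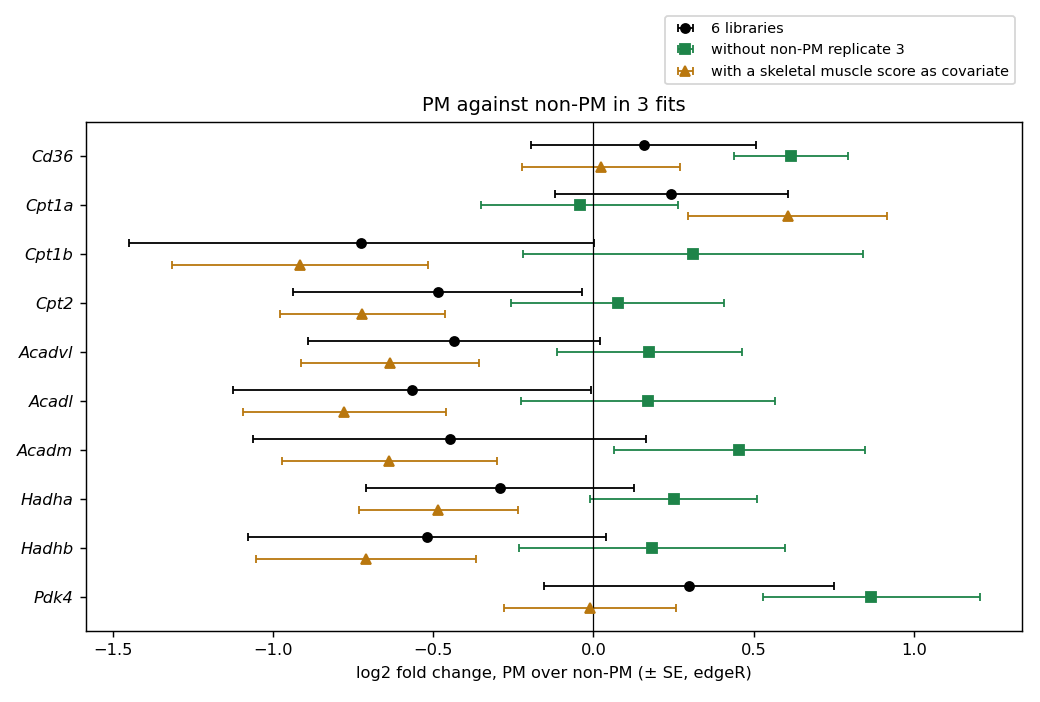
Log2 fold change of PM over non-PM (x axis, ± SE, edgeR) of each of the 10 genes over 6 libraries (black), without non-PM replicate 3 (green) and with a skeletal muscle score as covariate (ochre). The 7 enzyme genes lie below 0 in black and ochre and above 0 in green.

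Respiratory chain genes mark mitochondrial content, and 32 nuclear ones took 0.549, 0.818 and 0.488% of counts in PM, against 0.656, 0.470 and 1.22% in non-PM libraries. Over their summed CPM, the sum of the 10 genes was 0.211, 0.208 and 0.233 in PM, against 0.194, 0.202 and 0.194 in non-PM libraries. Every PM value was above every non-PM value, a log2 difference of 0.14 with the smallest exact permutation p that this design allows (p = 0.1, adjusted p = 0.5). For the 7 enzyme genes alone, chosen after these values were seen, the ratio was 0.161, 0.170 and 0.163 in PM, against 0.164, 0.152 and 0.169 in non-PM libraries, with overlap and a log2 difference of 0.030 (exact permutation p = 0.7). Set against 13 citric acid cycle genes in place of the respiratory chain, also chosen after the data were seen, the 10 genes gave a log2 difference of -0.041 (exact permutation p = 0.6), and the 7 enzyme genes one of -0.15 (exact permutation p = 0.2). The citric acid cycle genes themselves, over the respiratory chain, were at 0.363, 0.401 and 0.419 in PM, against 0.346, 0.352 and 0.341 in non-PM libraries. These groups did not overlap either (log2 difference 0.18, exact permutation p = 0.1), so the separation was not particular to the 10 genes.

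To show what lies before the starts of these genes, the promoter windows of RefSeq (build GRCr8, 250 bases before to 50 after the start) were searched on both strands. Of the 10 genes 8 had a window, and Cpt1b and Acadl did not match. The motifs were the nuclear receptor site AGGTCA, its tandem form AGGTCANAGGTCA bound by PPAR with RXR, TCAAGGTCA of the estrogen-related receptors, the MEF2 consensus of muscle genes, the CREB site TGACGTCA, the E-box CACGTG and the GC box GGGCGG bound by SP1. The longer nuclear receptor motifs contain AGGTCA and so overlap with it. The sequences below were chosen because Hadha and Hadhb start on opposite strands around 1 shared stretch, Acadm holds the only CREB site of the 8, and Cpt1a, the gene with the most deviating profile, holds none of the motifs, which is also true of Cd36. Capitals mark GC boxes (read as CCGCCC on the strand shown) in the first and the CREB site in the second.
Hadha and Hadhb: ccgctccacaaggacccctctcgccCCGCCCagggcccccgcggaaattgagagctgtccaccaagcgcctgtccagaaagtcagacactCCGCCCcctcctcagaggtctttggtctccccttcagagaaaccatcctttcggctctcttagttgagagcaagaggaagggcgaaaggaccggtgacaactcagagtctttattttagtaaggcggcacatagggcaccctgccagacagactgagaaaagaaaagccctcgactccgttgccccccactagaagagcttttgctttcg
Acadm: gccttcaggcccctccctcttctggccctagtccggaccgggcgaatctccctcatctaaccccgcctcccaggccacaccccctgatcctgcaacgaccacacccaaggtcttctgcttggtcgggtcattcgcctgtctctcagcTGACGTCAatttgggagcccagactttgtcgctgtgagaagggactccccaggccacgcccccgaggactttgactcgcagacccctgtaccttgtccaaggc
Cpt1a: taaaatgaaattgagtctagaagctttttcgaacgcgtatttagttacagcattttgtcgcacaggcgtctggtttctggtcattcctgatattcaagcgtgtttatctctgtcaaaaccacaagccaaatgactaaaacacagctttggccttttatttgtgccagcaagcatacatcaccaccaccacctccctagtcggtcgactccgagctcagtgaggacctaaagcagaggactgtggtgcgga

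The first sequence is the whole stretch between the starts of Hadhb (read leftwards) and Hadha (read rightwards), chr6:31907501-31907800 on the plus strand, with 57.0% G and C and 2 GC boxes. The second covers the 250 bases before Acadm, chr2:245542865-245543114 on the minus strand, with the CREB site starting at position -103 relative to the start. The third covers the 250 bases before Cpt1a, chr1:209995910-209996159 on the plus strand, with 45.6% G and C, against 62.4% before Acadm and a median of 52.0% over all 27457 windows. AGGTCA was found in 2 of the 8 windows (Acadvl and Hadhb) and in 15.7% of all windows, and GGGCGG in 5 of 8 (Cpt2, Acadm, Hadha, Hadhb and Pdk4) and in 34.9% of all. TGACGTCA was found before Acadm alone among the 8 and in 1.91% of all windows. No window of the 8 held AGGTCANAGGTCA (0.0583% of all), TCAAGGTCA (0.412%), the MEF2 consensus (1.91%) or CACGTG (6.65%). A match is a description of these letters and no test of binding.

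Around the 10 genes, 77 other genes of the pathway were tested, from lists that were chosen with earlier results of these data known. By the relaxed criterion 2 were higher in PM (Ucp3 and Foxo1), 0 were lower and 75 did not pass, beside 1.47% higher and 1.49% lower over all tested genes. Of the 77 log2 fold changes 26 were above 0, with a median of -0.21. Without non-PM replicate 3 the median was 0.20 and 62 of 77 were above 0.

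Genes of uptake, binding and activation (0 of 11 passing, median -0.014, and 0.20 without non-PM replicate 3) included Fabp5, a fatty acid binding protein of skin and other epithelia, with 21.0, 21.2 and 17.2 CPM in PM, against 25.4, 98.9 and 22.8 CPM in non-PM libraries. Its high library, non-PM replicate 2, was the one with keratinocyte RNA. Fabp5 had a log2 fold change of -1.31 ± 0.58 (edgeR adjusted p = 0.942), which was -0.28 without that library. Acsl4, an acyl-CoA synthetase for arachidonic acid, was at 22.3, 22.6 and 24.8 CPM in PM, against 21.1, 19.0 and 18.5 CPM in non-PM libraries, a small difference without overlap (log2 fold change 0.25 ± 0.14, edgeR adjusted p = 0.942).

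The shuttle and malonyl-CoA genes (0 of 7 passing, median -0.17, and 0.22 without non-PM replicate 3) included Acacb, which makes the malonyl-CoA that inhibits carnitine palmitoyltransferase 1. It had 71.2, 121.2 and 63.5 CPM in PM, against 93.3, 52.2 and 263.5 CPM in non-PM libraries. Slc25a20, the carnitine-acylcarnitine carrier, had 42.6, 66.3 and 42.6 CPM in PM, against 54.4, 37.7 and 103.2 CPM in non-PM libraries. Both were highest in non-PM replicate 3 and next in PM replicate 2, as the 7 enzyme genes were.

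None of the 12 other beta-oxidation enzymes passed, and all 12 log2 fold changes were below 0 (median -0.35). The median turned to 0.095 without non-PM replicate 3. Acad9, an acyl-CoA dehydrogenase also needed to assemble complex I, had 54.2, 89.1 and 59.2 CPM in PM, against 106.9, 45.7 and 238.7 CPM in non-PM libraries. Decr1, which handles unsaturated chains, had 23.1, 27.4 and 24.8 CPM in PM, against 30.2, 23.4 and 46.1 CPM in non-PM libraries. The electron transfer genes Etfb (41.3, 64.6 and 35.0 CPM in PM, against 62.7, 40.5 and 147.9 CPM in non-PM libraries) and Etfa (110.3, 146.2 and 88.8 CPM in PM, against 132.9, 72.5 and 286.5 CPM in non-PM libraries) pass electrons on from the dehydrogenases. Of the 3 genes of this step 0 passed and 0 were above 0 (median -0.51, and 0.16 without non-PM replicate 3). Of the 5 ketone body enzymes 0 passed and 1 was above 0 (median -0.32, and 0.089 without non-PM replicate 3). Acat1, the mitochondrial thiolase, had 108.0, 180.2 and 95.1 CPM in PM, against 139.4, 90.5 and 339.6 CPM in non-PM libraries. The citric acid cycle and respiratory chain lists had 0 of 13 and 0 of 32 log2 fold changes above 0, with medians of -0.26 and -0.51, and 0 genes passing. These medians turned to 0.36 and 0.16 without non-PM replicate 3.

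**Figure D5:**
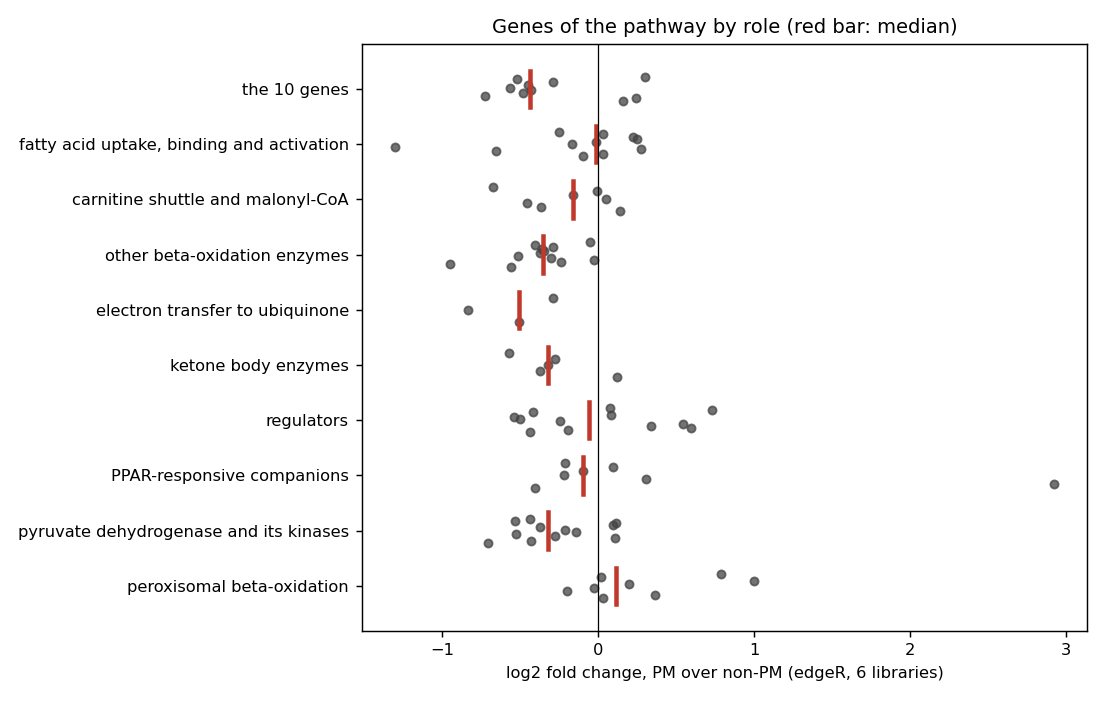
Log2 fold change of PM over non-PM (x axis, edgeR, 6 libraries) of the 10 genes and of 77 pathway genes by role, one point per gene, with the median of each role as a red bar. The point near 3 is Ucp3 (2.92), and most medians lie below 0.

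Ucp3, the uncoupling protein of skeletal muscle, whose expression follows fatty acid supply, had 5.87, 58.5 and 33.2 CPM in PM, against 5.05, 3.73 and 4.08 CPM in non-PM libraries. It was high in PM replicates 2 and 3, the libraries with high Myh4, and in PM replicate 1 lay just above the non-PM libraries. Ucp3 had a log2 fold change of 2.92 ± 0.76 (SE, 3 libraries per group, edgeR adjusted p = 0.942). It lay between 2.19 and 3.42 with each library left out and was 1.93 with the skeletal muscle covariate, past the relaxed criterion each time. With a score of adipocyte markers as covariate it was 1.76 and no longer passed. Ucp2, the uncoupling protein of immune and other cells, had 49.6, 45.1 and 62.04 CPM in PM, against 60.2, 107.3 and 39.9 CPM in non-PM libraries, an overlap. Of the 7 genes responsive to PPAR in this list, 1 passed and the median was -0.096, or 0.036 without non-PM replicate 3.

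Foxo1, a transcription factor of fasting that acts on Pdk4, had 29.0, 19.2 and 32.6 CPM in PM, against 16.2, 19.9 and 12.7 CPM in non-PM libraries. PM replicate 2 lay within the non-PM range. Foxo1 had a log2 fold change of 0.73 ± 0.26 (edgeR adjusted p = 0.942), and it no longer passed without PM replicate 1 (0.67), PM replicate 3 (0.57), non-PM replicate 1 (0.71) or non-PM replicate 3 (0.56). Pparg, the receptor that drives fat cell formation, had 11.51, 13.7 and 23.0 CPM in PM, against 10.2, 12.1 and 9.59 CPM in non-PM libraries, and was highest in PM replicate 3, the library with the largest adipocyte share. Of the 12 regulators 1 passed, 6 were above 0 and the median was -0.062, or 0.42 without non-PM replicate 3.

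The pyruvate dehydrogenase list (0 of 12 passing, median -0.33, and 0.26 without non-PM replicate 3) included Pdk1, with 82.5, 139.4 and 90.3 CPM in PM, against 136.6, 76.5 and 297.1 CPM in non-PM libraries. Mpc2, a subunit of the mitochondrial pyruvate carrier, had 64.4, 84.2 and 53.4 CPM in PM, against 76.2, 59.2 and 137.9 CPM in non-PM libraries. In CPM, Pdk1 was highest in non-PM replicate 3 and next in PM replicate 2, as Pdk4 was (80.0 and 78.1). By FPKM, Pdk4 was highest in PM replicate 2. The 8 peroxisomal genes (0 passing, 6 above 0) had a median of 0.11, and of 0.15 without non-PM replicate 3. Abcd2, a peroxisomal transporter of very long chain fatty acids found in fat tissue, had 4.33, 10.03 and 16.7 CPM in PM, against 5.28, 4.15 and 6.14 CPM in non-PM libraries, and Pex11a, which takes part in peroxisome division, had 3.92, 7.15 and 8.68 CPM in PM, against 4.79, 4.51 and 2.15 CPM in non-PM libraries. The groups overlapped for both genes.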

How the data were processed

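RNA-seq (stranded mRNA libraries, read in pairs) was performed on 3 PM and 3 non-PM pieces of healed Achilles tendon. According to the submitters' processing notes, reads were checked with FastQC 0.11.7, trimmed with Trimmomatic 0.38 and aligned with HISAT2 2.1.0 to the Rnor_6.0 genome, and the study's methods name StringTie for transcript assembly. The table deposited by the authors gives whole-number read counts per gene and sample without normalization. The same table deposited by the authors gives FPKM, which is scaled by transcript length and depth. Of strand and multiple matches in counting, no setting was given in the sources used here.

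The counts were tested with edgeR 4.0.16 (quasi-likelihood, trimmed mean of M values, filterByExpr) in R 4.3.3, PM against non-PM, with Benjamini-Hochberg adjustment over 18134 genes. Group means of ratios and shares were compared by two-sided exact permutation tests (scipy 1.17.1). Alternatives were DESeq2 1.42.0, limma 3.58.1 on log2(FPKM + 1) and log2(FPKM + 0.1), other scalings, no filter, each library left out, a replicate block, and scores of muscle or adipocyte markers as covariates. All 222 list symbols were matched, 8 of them by gene ID.

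All 10 genes were named whatever their values, with up to 2 genes of each pathway list with the smallest p, the defining markers, Chkb, and the 5 genes of nearest profile. Of the genes this rule takes, 1 is not reported here. The members and lists were chosen with earlier results of these data known.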

Additional observations from a re-analysis of the deposited data

How the results depend on the processing

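Leaving out 1 library moved the median log2 fold change of the 10 genes between -0.76 and 0.22, and that of the 77 pathway genes between -0.40 and 0.20. Over the same refits 0 to 2 of the 10 genes were higher by the relaxed criterion (1 without non-PM replicate 2, 2 without non-PM replicate 3) and 0 were lower. Of the 77 pathway genes 1 to 4 were higher and 0 to 5 lower. Over all genes tested, 110 (without PM replicate 3) to 582 (without non-PM replicate 2) were higher, and 96 to 627 lower in the same 2 refits. The log2 fold changes ranged as follows when 1 library was left out: Cd36 from -0.055 to 0.62, Cpt1a from -0.042 to 0.73, Cpt1b from -1.22 to 0.31, Cpt2 from -0.85 to 0.075, Acadvl from -0.73 to 0.17, Acadl from -0.93 to 0.17, Acadm from -0.83 to 0.46, Hadha from -0.55 to 0.25, Hadhb from -0.89 to 0.18, Pdk4 from 0.0087 to 0.87, Acacb from -1.06 to 0.22, Slc25a20 from -0.64 to 0.12, Etfa from -0.86 to 0.16, Acat1 from -0.90 to 0.14 and Ucp2 from -0.70 to 0.062. The difference in summed CPM ranged from -813.8 to 265.6, that of the log2 Cpt1b to Cpt1a ratio from -1.80 to 0.31, and that of the sum over muscle markers from -0.38 to 0.12. With citric acid cycle genes in place of respiratory chain genes, chosen after seeing the data, the difference was -0.041. The muscle covariate gave 2 of the 10 genes and 16 pathway genes lower, beside 945 genes lower over all tested, and put Pdk4 at -0.011. The adipocyte covariate left 0 pathway genes higher, beside 123 genes over all tested. It put Cpt1a at -0.053, Cpt1b at 0.090, Acadm at 0.13, Hadha at 0.0051, Hadhb at 0.085 and Etfa at 0.065. DESeq2 gave 1 pathway gene lower, beside 476 genes over all tested. Limma on log2(FPKM + 1), log2(FPKM + 0.1) and without a filter gave 1 higher each, beside 130, 126 and 180 genes over all tested. On log2(FPKM + 1) the median was -0.16 for the 10 genes, -0.014 for the 77 and 0.079 over all genes tested. The median of all genes was 0.10 on log2(FPKM + 0.1). Same-numbered libraries did not deviate together (correlations of -0.16, -0.33 and -0.26). With a replicate block the median of the 10 genes was -0.25, 0 of 10 passed and 1 pathway gene was higher, beside 76 genes over all tested. The causes of these changes were not tested. With 3 libraries per group, exact permutation tests cannot give a p below 0.1.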
